A study of Homo sapiens with 4 samples.

Results

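The genes described here are 10 feedback regulators and outputs of ERK signaling: the Sprouty genes *SPRY2* and *SPRY4*, the related *SPRED1* and *SPRED2*, the dual-specificity phosphatases *DUSP4*, *DUSP5* and *DUSP6*, the ETS factors *ETV4* and *ETV5*, and *PHLDA1*. They were taken by gene symbol from the annotation of the Affymetrix Human Genome U133 Plus 2.0 array, and all 10 were found, as 10 of 19775 genes, with 28 probe sets (groups of short probes that read 1 transcript) of the 41097 that name a single gene. Expression was measured in Huh7 and Hep3B, 2 established human hepatocellular carcinoma (HCC) lines. In each line, 1 profile came from cells treated with arsenic trioxide (ATO) at 3 μM for 7 days and 1 from negative control (NC) cells that received DMSO, giving 4 profiles in all. The labels name no other agent or genetic change in any group, and no time for DMSO. The array comparison asked which genes ATO altered in both lines. Each condition has 1 profile in each line, so the ratio within a line carries neither an error nor a test.

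ERK is the last kinase of the RAF-MEK-ERK cascade that growth factor receptors switch on through RAS. Active ERK induces genes whose products then restrain the same cascade at several levels. Sprouty and SPRED proteins act near the receptors, RAS and RAF, dual-specificity phosphatases remove phosphate from MAP kinases, and ETS factors carry the signal to target promoters. Because their transcripts follow ERK output, several of these genes are widely read as markers of pathway activity, and in HCC Sprouty and SPRED genes have been studied as brakes on growth factor signaling.

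The promoter windows of 3 of these genes are printed because they stand for the 3 patterns below: *SPRY4* was higher with ATO in both lines, *DUSP6* was lower with ATO in Hep3B by the largest factor among the 10 genes, and *PHLDA1* went opposite ways. Each window is RefSeq sequence of GRCh38.p14, written 5′ to 3′ on the strand of the gene, with 250 bases before and 50 after the transcription start. Capitals mark GGAA or its reverse complement TTCC, the core that ETS factors bind. RefSeq windows were matched for 6 of the 10 genes, namely *SPRY2*, *SPRY4*, *SPRED1*, *SPRED2*, *DUSP6* and *PHLDA1*. *SPRY4* lies on the minus strand at chr5:142324198-142324497, *DUSP6* on the minus strand at chr12:89352452-89352751 and *PHLDA1* on the minus strand at chr12:76031727-76032026.
SPRY4: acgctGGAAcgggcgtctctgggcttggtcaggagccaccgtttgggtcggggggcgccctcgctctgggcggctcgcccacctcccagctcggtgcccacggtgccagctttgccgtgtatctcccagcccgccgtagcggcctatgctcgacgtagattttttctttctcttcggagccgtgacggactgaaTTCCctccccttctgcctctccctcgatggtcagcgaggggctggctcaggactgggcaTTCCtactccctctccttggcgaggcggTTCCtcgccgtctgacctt
DUSP6: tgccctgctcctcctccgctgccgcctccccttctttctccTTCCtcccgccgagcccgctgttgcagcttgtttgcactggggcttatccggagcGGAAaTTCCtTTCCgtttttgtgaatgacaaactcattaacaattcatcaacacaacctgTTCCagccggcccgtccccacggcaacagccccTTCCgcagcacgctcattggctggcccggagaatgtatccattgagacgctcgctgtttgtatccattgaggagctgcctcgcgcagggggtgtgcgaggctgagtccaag
PHLDA1: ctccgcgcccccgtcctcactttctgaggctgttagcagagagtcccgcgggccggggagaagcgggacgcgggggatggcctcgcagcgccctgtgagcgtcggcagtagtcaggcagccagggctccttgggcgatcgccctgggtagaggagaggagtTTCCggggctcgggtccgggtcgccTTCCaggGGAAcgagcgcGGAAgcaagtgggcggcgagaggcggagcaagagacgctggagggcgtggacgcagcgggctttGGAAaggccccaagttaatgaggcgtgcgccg

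The *SPRY4* window held 4 GGAA matches counted on both strands, the *DUSP6* window 6 and the *PHLDA1* window 5. The core is short, and 95.5% of the 35116 RefSeq windows of this length held it, with a median of 3 matches. The longer ETS motif CCGGAAGT, found in 4.14% of all windows, was in none of these 3. The same held for the AP-1 motif TGANTCA (7.71%), the CRE TGACGTCA (1.85%) and TATAAA (11.5%). Of the CIC motif, only the forms TGAATGAA (1.65% of windows) and TGAATGGA (1.03%) were searched, and neither was in these 3 windows. Other forms of the CIC motif were not searched, so these windows may hold such a form. CCGGAAGT holds a GGAA, so its matches are counted under both. The antioxidant response core TGANNNNGC, in 41.8% of all windows, had 2 matches in the *SPRY4* window and 1 in the *DUSP6* window. These matches are descriptions of letters and not binding data.

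The values are linear intensities whose median was 15.8 to 16.3 in each profile, and the median over probe sets of their mean intensity was 17.3. A probe set whose mean over the 4 profiles was below 17.3 is called dim here, and 22 of the 28 probe sets, at least 1 for each of the 10 genes, were not dim. Each gene is given by its brightest probe set, and levels are compared only within a probe set. Liver products differed between the lines before any treatment effect was considered: alpha-fetoprotein (*AFP*) had 62.1 in ATO and 91.8 in NC of Huh7, against 1646 and 3567 in Hep3B, and albumin (*ALB*) had 358 and 155 in Huh7, against 10730 and 12803 in Hep3B. Huh7 cells are generally known to make both proteins, so Huh7 names a label here, and each line's ratios are given apart. *TTR* had 32.8 with ATO and 48.1 in NC of Huh7, against 1983 and 1704 in Hep3B. *GPC3* had 32.8 and 29.3 in Huh7, against 2397 and 3730 in Hep3B. *APOA1* was also lower in Huh7, at 969.7 and 1046 against 2524 and 4240, and *FGB* was higher, at 761.6 and 1012 against 590.3 and 209.5. *SERPINA1*, *APOB* and *TF* were bright in all 4 profiles. Of 13 markers of leukocytes, endothelium and fibroblasts, 8, among them *PTPRC*, *CDH5* and *DCN*, were below 17.3 in all 4 profiles, and *LYZ*, *COL1A1* and *PDGFRB* were above it in all 4. *LYZ* had 234 with ATO and 411 in NC of Huh7 and 30.3 and 176 in Hep3B, *COL1A1* lay between 54.5 and 76.4 and *PDGFRB* between 40.3 and 58.0. *PECAM1* and *CD14* were above 17.3 in some profiles, at most at 20.5 and 22.0. The summed level was 72.5 to 443 for the leukocyte markers, 37.9 to 42.2 for the endothelial and 126 to 146 for the fibroblast markers, and their part in the results was not tested. Poly-A control transcripts, which are added to RNA before labeling, had log2 ratios of -0.31 in Huh7 and -0.29 in Hep3B for ATO over NC, and their part in the results was not tested.

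**Figure D1:**
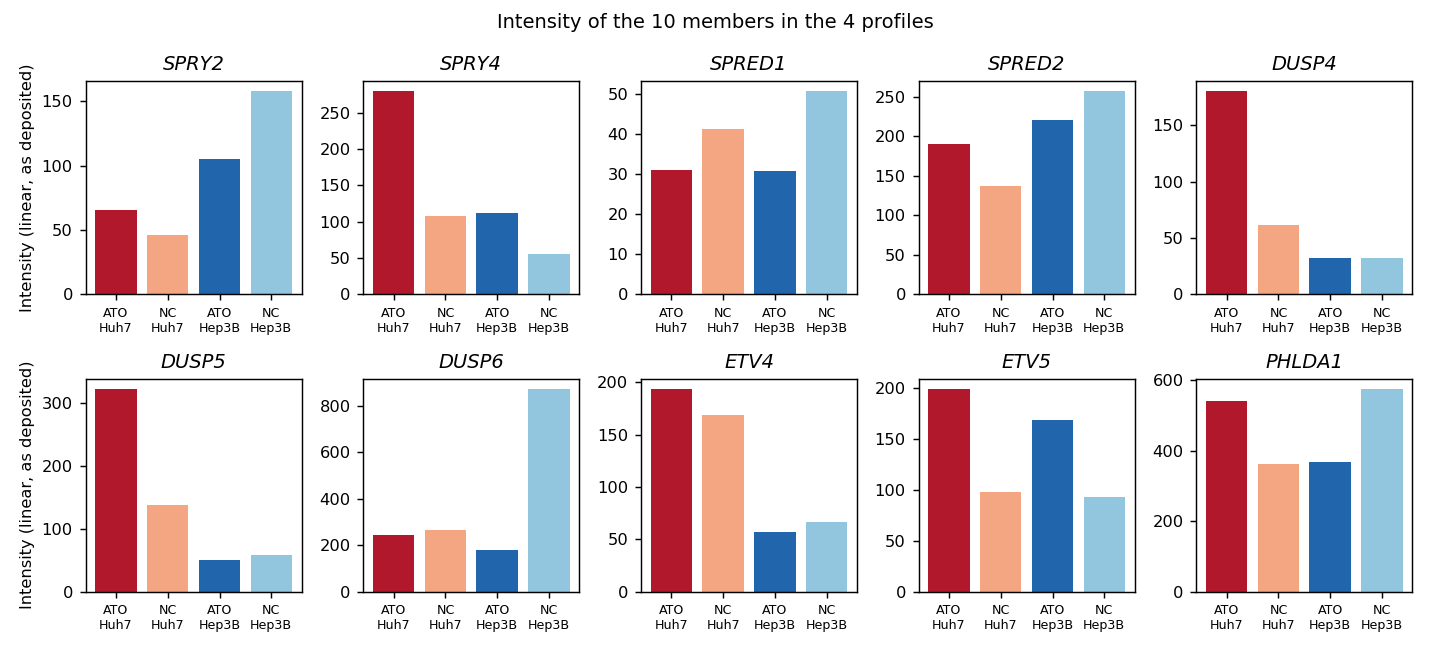
Intensity (linear, vertical axis, from 0) of the 10 genes in the 4 profiles, 1 bar per profile from the brightest probe set, so without error bars. *SPRY4* and *ETV5* were above NC in both lines, *DUSP4* and *DUSP5* were at 180.4 and 322 in ATO Huh7, and *DUSP6* stood at 872 in NC Hep3B, the highest of its 4 values.

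*SPRY4* and *ETV5* were the 2 genes of the 10 that were more than 1.5 times NC in both lines, against 0.804% of all genes tested. None of the 10 was below 0.67 times NC in both lines, against 0.587% of all genes. In Huh7, 4 of the 10 genes, *SPRY4*, *DUSP4*, *DUSP5* and *ETV5*, were above 1.5 (3.21% of all genes) and none was below 0.67 (3.25%). In Hep3B, *SPRY4* and *ETV5* were above 1.5 (5.04% of all genes), and 4 genes, *SPRY2*, *SPRED1*, *DUSP6* and *PHLDA1*, were below 0.67 (4.02%). The thresholds are those of the study and are used as a description. In RNA from a whole culture, less transcript per cell and fewer cells that carry it cannot be told apart.

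*SPRY4*, a Sprouty protein that restrains RAS and RAF activation below receptor tyrosine kinases, had an intensity of 280.2 with ATO and 108 in NC of Huh7. In Hep3B it had 112 with ATO and 55.8 in NC. Both ATO profiles were above both NC profiles, the one of Hep3B narrowly. The ratio was 2.59 in Huh7 and 2.0 in Hep3B, and the mean log2 ratio was 1.19 ± 0.26 (SD, n = 2 lines). Its ratio ranked 60 from the highest of 19775 genes in Huh7 and 258 in Hep3B.

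*SPRY2*, the other Sprouty gene of the 10, did not follow *SPRY4*. Its intensity was 65.4 with ATO and 45.7 in NC of Huh7, a ratio of 1.43. In Hep3B it was 105 with ATO and 158 in NC, a ratio of 0.664, just past the lower threshold, and 0.695 with 16 added to every intensity. Both Hep3B values lay above both Huh7 values, so the level of *SPRY2* was ordered by line rather than by treatment.

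The SPRED proteins, which share the Sprouty domain and bring neurofibromin to RAS, were read mainly by 1 probe set each, since the other 2 of each gene were dim. *SPRED1* had 31.0 with ATO and 41.3 in NC of Huh7, and 30.8 with ATO and 50.6 in NC of Hep3B. It was lower with ATO in both lines, at 0.751 and 0.609 times NC, with a mean log2 ratio of -0.57 ± 0.21 (SD, n = 2 lines), and its ATO values in the lines were nearly equal. With the dim probe sets averaged in, its ratios were 0.985 and 0.892. *SPRED2* had 189 with ATO and 137 in NC of Huh7, and 220.2 with ATO and 257 in NC of Hep3B. Its ratios, 1.38 in Huh7 and 0.857 in Hep3B, were inside both thresholds.

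**Figure D2:**
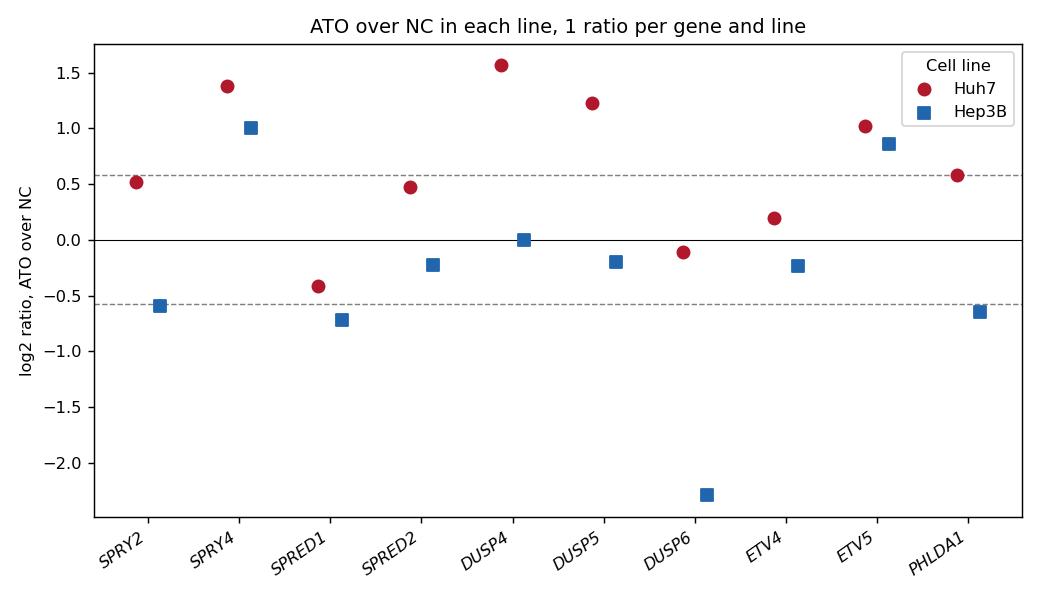
Log2 ratio of ATO over NC (vertical axis) for the 10 genes, 1 point per gene and line, with circles for Huh7 and squares for Hep3B, and dashed lines at ratios of 1.5 and 0.67. The points of *SPRY4* and *ETV5* lie above the upper line in both cell lines, and the Hep3B point of *DUSP6* lies lowest at -2.29.

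The dual-specificity phosphatases gave a different picture in each line. *DUSP4*, a nuclear phosphatase of MAP kinases, had 180.4 with ATO and 61.0 in NC of Huh7, a ratio of 2.96 that ranked 39 from the highest of all genes and was the highest of the 10. In Hep3B the deposited value was 31.8 with ATO and 31.8 in NC, a ratio of 1, and both were below either Huh7 value. The other *DUSP4* probe sets gave ratios of 3.51 and 2.36 in Huh7, and 1.02 and 0.967 in Hep3B. Both were below the median probe set in Hep3B, and the one with 2.36 also in NC of Huh7, at 15.2 against 36.0 with ATO.

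*DUSP5*, a nuclear phosphatase with preference for ERK, followed *DUSP4* in Huh7. Its single probe set had 322 with ATO and 137 in NC of Huh7, a ratio of 2.35 with rank 87 from the highest. In Hep3B it had 50.4 with ATO and 57.7 in NC, a ratio of 0.872. All 3 values other than that of ATO-treated Huh7 cells were at or below 137.

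*DUSP6*, the cytoplasmic phosphatase that acts on ERK and is among the most used readouts of its activity, showed the reverse. Its intensity was 244 with ATO and 264 in NC of Huh7, a ratio of 0.927. In Hep3B it was 178 with ATO and 872 in NC, a ratio of 0.204, so NC was 4.89 times ATO, and only 6 of the 19775 genes had a lower ratio in that line. The other probe sets gave the same order of lines, with 189 and 233 (0.811) and 278 and 258 (1.08) for ATO and NC of Huh7, and 120.03 and 663 (0.181) and 184 and 647 (0.284) for ATO and NC of Hep3B. The NC profile of Hep3B was the highest of the 4 in all 3 probe sets, and the other 3 profiles lay within 178 to 264 in the brightest one.

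The ETS factors of the PEA3 group, *ETV4* and *ETV5*, differed from each other. *ETV5* had 199 with ATO and 98.4 in NC of Huh7, and 169 with ATO and 93.1 in NC of Hep3B, so that treatment and not line ordered its values. The ratios were 2.02 and 1.81, with a mean log2 ratio of 0.94 ± 0.11 (SD, n = 2 lines), the smallest SD among the 10 genes. The 3 other *ETV5* probe sets that were not dim gave 2.01, 1.51 and 2.77 in Huh7 and 1.54, 1.32 and 1.86 in Hep3B, and the dim one gave 1.16 and 0.916. The mean of all 5 gave 1.81 in Huh7 and 1.44 in Hep3B, the second of these short of the threshold.

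*ETV4* had 194 with ATO and 169 in NC of Huh7, and 56.8 with ATO and 66.8 in NC of Hep3B, so both Huh7 values were above both Hep3B values. Its ratios were 1.15 and 0.851. The other probe set gave 1.247 and 1.28, so the 2 probe sets of *ETV4* had opposite directions in Hep3B and the same direction in Huh7.

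*PHLDA1*, a pleckstrin homology-like protein induced by growth factors, had 541 with ATO and 361 in NC of Huh7, a ratio of 1.498 that stopped just short of the threshold. In Hep3B it had 368 with ATO and 575 in NC, a ratio of 0.639. Of its 6 probe sets, all were above 1 in Huh7, at 1.23 to 2.29, and all were below 1 in Hep3B, at 0.639 to 0.921.

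Of the 28 probe sets, 24 had a ratio above 1 in Huh7 and 8 in Hep3B, where 19 were below 1 and 1 was at 1. The range was 0.751 to 3.51 in Huh7 and 0.181 to 2.0 in Hep3B, and 15 probe sets, 11 of them not dim, were above 1 in Huh7 and below 1 in Hep3B. Probe sets of 1 gene read the same transcripts and are no replicates. The shares over all probe sets of the array were not counted, so these counts are only a description.

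**Figure D3:**
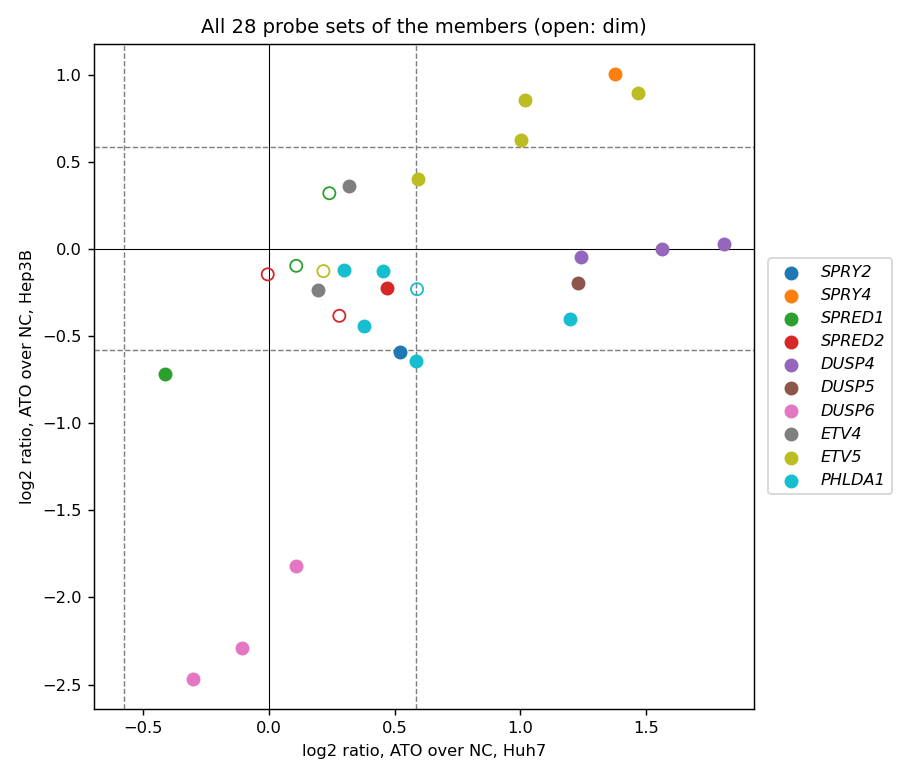
Log2 ratio of ATO over NC in Huh7 (horizontal axis) against that in Hep3B (vertical axis) for all 28 probe sets, colored by gene, with open circles for the 6 dim ones and dashed lines at ratios of 1.5 and 0.67. The probe sets of *DUSP4* lie to the right near 0 in Hep3B, and those of *DUSP6* at the bottom.

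By gene, 5 of the 10 were above 1 in Huh7 and below 1 in Hep3B, namely *SPRY2*, *SPRED2*, *DUSP5*, *ETV4* and *PHLDA1* (18.9% of all genes). *SPRY4* and *ETV5* were above 1 in both lines (32.0%), and *SPRED1* and *DUSP6* were below 1 in both (24.7%). The 10 genes had median log2 ratios of 0.55 (Huh7) and -0.23 (Hep3B), beside 0.01 and 0.04 over all genes. In all 10 the Huh7 ratio was above the Hep3B ratio (46.3% of all genes), as it was in 26 of the 28 probe sets. Among the lists described below, the Huh7 ratio was the higher in 20 of 25 other ERK outputs and 15 of 23 other inhibitors. It was the higher in 14 of 20 other ETS factors and 12 of 22 ligands and receptors. The count was 4 of 10 for adaptors and exchange factors and 4 of 14 for kinases and scaffolds. Whether the lines differ in their response was not tested, because each line has 1 ratio per gene.

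The gap between the lines was larger with ATO than in NC for *DUSP4* and *DUSP5*. Huh7 over Hep3B was 5.67 with ATO and 1.92 in NC for *DUSP4*, and 6.39 and 2.37 for *DUSP5*. For *DUSP6* the order turned, with 1.37 with ATO and 0.302 in NC, and for *PHLDA1* likewise, with 1.47 and 0.628. For *SPRED1* it turned only barely, with 1.004 with ATO and 0.815 in NC. *ETV5* was close to equal in the lines under both conditions, at 1.18 and 1.06, whereas *SPRY2* stayed lower in Huh7 at 0.624 and 0.289.

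**Figure D4:**
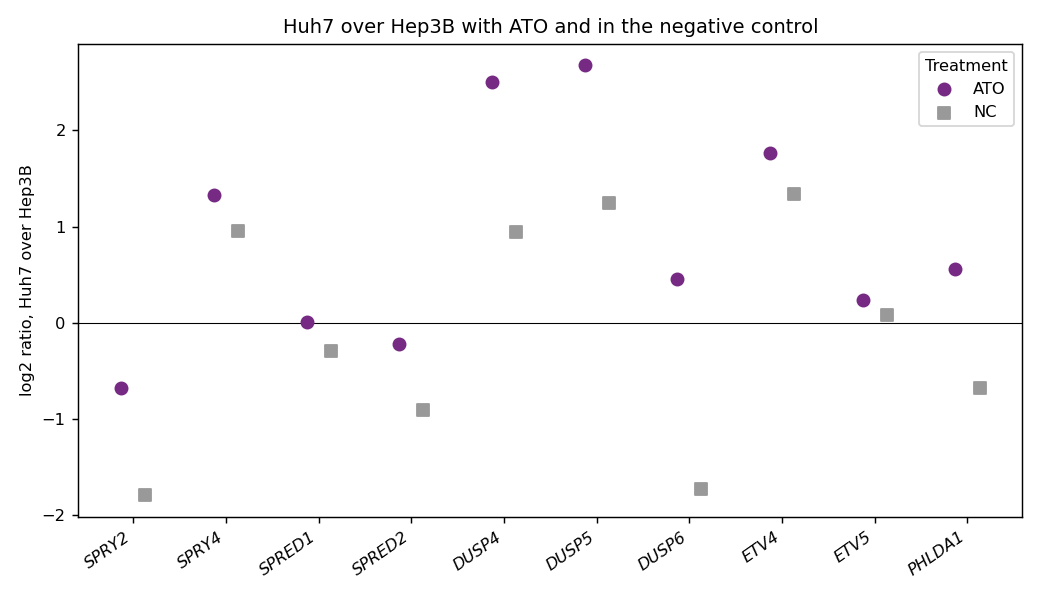
Log2 ratio of Huh7 over Hep3B (vertical axis) for the 10 genes, with circles for ATO and squares for NC, 1 value each. Every circle lies above its square, and the points of *DUSP6* and *PHLDA1* lie on opposite sides of 0, as do, barely, those of *SPRED1*.

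With the lines taken as replicates and the cell line in the model, limma on log2(intensity + 16) called none of the 10 genes, and none of the 19775 (0.00%), at an adjusted p of 0.05. The lowest adjusted p among the 10 was 0.506, shared by *SPRY4*, *SPRED1* and *ETV5*. Before adjustment, limma placed these 3 genes and 1886 genes in all (9.54%) under 0.05. The fitted log2 difference was 1.04 ± 0.14 (SE) for *SPRY4*, 0.84 ± 0.08 for *ETV5* and -0.40 ± 0.09 for *SPRED1*, in which the offset shrinks the change of dim genes. For *DUSP6* and *DUSP4*, where the lines disagreed most, it was -1.15 ± 0.63 (adjusted p = 0.655 by limma) and 0.68 ± 0.41 (adjusted p = 0.681). The fit has 1 residual degree of freedom, and limma adds a prior of 1.81 degrees of freedom taken from all genes. The SE and p-values thus mix the spread of a gene between the lines with that of all genes. Neither holds any spread between cultures.

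Genes of the same pathway were placed beside the 10 by role, as 6 lists of which 114 genes were measured. The 22 ligands and receptors had median log2 ratios of -0.02 (Huh7) and -0.04 (Hep3B), with none past the thresholds in both lines. *HBEGF*, a ligand of the EGF receptor, was 2.13 and 1.36 times NC, *EREG*, another such ligand, was 1.13 and 2.56 times NC, and the FGF receptor *FGFR4* was 0.67 and 0.687 times NC. *PDGFRA*, a PDGF receptor, had 5.35 with ATO and 48.5 in NC of Hep3B, and was under 5 in both Huh7 profiles.

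Neither the 10 adaptors and exchange factors nor the 14 RAS to ERK kinases and scaffolds held a gene past the thresholds in both lines. Their median log2 ratios were -0.11 and -0.18, and -0.07 and 0.13. *GRB2*, the adaptor that brings SOS to receptors, was 0.817 and 0.865 times NC, and *RRAS*, a RAS-related GTPase, was 1.49 and 1.05 times NC.

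Among 23 other inhibitors of the pathway, the median log2 ratios were 0.02 (Huh7) and -0.09 (Hep3B). Of them, 1 gene, *SPSB1*, was past 1.5 in both lines (0.804% of all genes). *SPSB1* is a SOCS box protein better known for directing inducible nitric oxide synthase to degradation than for a step of this pathway. It had 122 with ATO and 42.1 in NC of Huh7 and 32.5 with ATO and 21.4 in NC of Hep3B, ratios of 2.90 and 1.52. *SPRY1*, the third Sprouty gene that was not dim, was 0.817 and 0.651 times NC, below 1 in both lines where *SPRY4* was above. *ERRFI1*, an inhibitor of the EGF receptor, was 1.76 and 0.865 times NC. *DUSP1*, the phosphatase induced by stress and growth factors, had 1956 with ATO and 1159 in NC of Huh7 and 290.1 with ATO and 475 in NC of Hep3B, ratios of 1.69 and 0.611. It was named after its values were seen, because it and *FOS*, which was dim, were the 2 of the 114 genes above 1.5 in Huh7 and below 0.67 in Hep3B (0.172% of all genes), where none of the 10 genes was.

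The 25 other ERK outputs had median log2 ratios of 0.48 (Huh7) and 0.08 (Hep3B). Of these, 10 were above 1.5 (3.21% of all genes) and none below 0.67 (3.25%) in Huh7. In Hep3B 3 were above 1.5 (5.04%) and 3 below 0.67 (4.02%). *LIF*, a cytokine of the IL-6 family, was 2.71 and 2.03 times NC, and *THBS1*, the matrix protein thrombospondin, was 2.54 and 1.80 times NC. Besides these, *MYC*, a transcription factor, was above 1.5 in Hep3B, at 1.40 times NC in Huh7 and 1.74 times in Hep3B. *IER3*, an immediate early gene, was 2.40 times NC in Huh7 and 1.03 times in Hep3B, and *PHLDA2*, a paralog of *PHLDA1*, was 2.01 and 1.43 times NC. The 3 below 0.67 in Hep3B were *JUNB*, an AP-1 subunit, at 1.26 and 0.658 times NC, *KLF10*, a zinc finger factor, at 1.39 and 0.656 times, and the dim *FOS* at 1.58 and 0.603 times.

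The 20 other ETS factors had median log2 ratios of -0.02 and -0.07. None was above 1.5 in either line (3.21% of all genes in Huh7 and 5.04% in Hep3B). In Hep3B 5 of them were below 0.67 (4.02% of all genes). Among these were *ELK3*, with 54.2 with ATO and 126 in NC (0.431), and *GABPA*, with 72.9 and 151 (0.482). In Huh7 these 2 were 0.911 and 0.841 times NC.

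**Figure D5:**
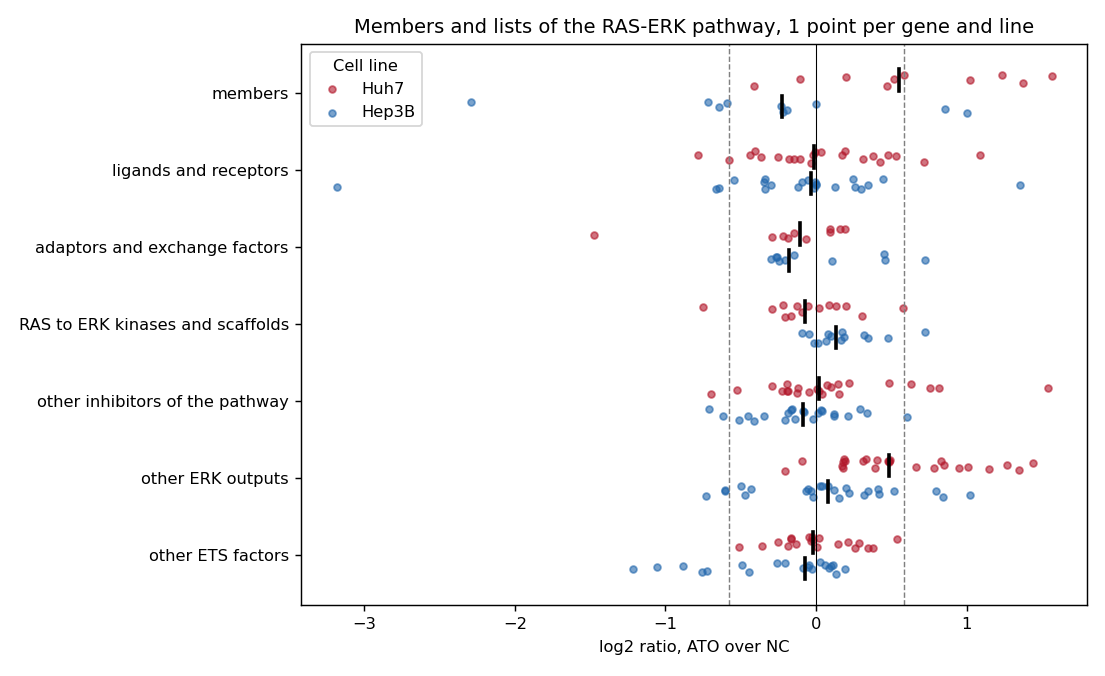
Log2 ratio of ATO over NC (horizontal axis) for the 10 genes and for 6 lists of the RAS-ERK pathway, 1 point per gene, with Huh7 above Hep3B in each row, black bars at the medians and dashed lines at ratios of 1.5 and 0.67. The medians of the 10 genes lie at 0.55 and -0.23, and those of the ligands and receptors at -0.02 and -0.04.

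A published set of 10 transcripts used to score MAPK pathway activity shares 7 genes with the 10 described here, so it adds little of its own. Its median log2 ratios were 0.68 (Huh7) and -0.15 (Hep3B), with 5 genes above 1.5 in Huh7 (3.21% of all genes). Of the 3 that are not shared, *EPHA2*, an ephrin receptor, was 1.72 and 1.27 times NC, *CCND1*, a cyclin of the early cell cycle, was 1.93 and 0.720 times NC, and *EPHA4* was dim.

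The genes whose values over the 4 profiles were most like those of *SPRY4*, by Euclidean distance of log2(intensity + 16) after centering each gene, were *SLC4A7*, a bicarbonate transporter (0.13), *CABLES1* (0.16) and the metallothionein *MT1H* (0.17). *SLC4A7* had 175 with ATO and 73.4 in NC of Huh7 and 67.6 with ATO and 34.3 in NC of Hep3B. For *ETV5* they were *NDRG4* (0.12), *SH3KBP1* (0.16) and *ARHGDIB* (0.24). With 4 profiles many genes can share a pattern, and nearness says nothing of shared control.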

How the data were processed

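Total RNA of ATO-treated and negative control Huh7 and Hep3B cells was hybridized to Human Genome U133 Plus 2.0 arrays and scanned with Command Console 3.1. The authors ran Robust Multi-array Average (RMA), took logs and normalized between arrays in the R package simpleaffy. Each deposited value is a linear intensity of 1 probe set. How the logs were undone, and how many arrays stand behind a profile, is not given in the sources used here. No background or detection call was used, and the number of profiles limits the precision.

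Of the 54675 probe sets, 41097 had 1 gene symbol, 1801 several and 11777 none. Each of 19775 genes was read from its brightest probe set. Ratios of ATO over NC were taken within each line, and limma 3.58.1 in R 4.3.3 took log2(intensity + 16) with cell line as a block and Benjamini-Hochberg adjustment over all genes at 0.05. Both lines served as replicates, so its p-values rest on the spread between these profiles only. That spread is of the gene itself and, through the prior, of all genes. Python 3.11.15, numpy 2.4.6, pandas 2.3.3 and matplotlib 3.10.9 were used. The fit was also run on simulated data as a check of its code, which says nothing of its power on these profiles.

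The 10 genes and the lists were chosen with earlier results of these data known. Named were all 10 genes with their probe sets, from each list those that passed a threshold in both lines and, besides them, those among the 2 highest and 2 lowest by mean log2 ratio, and the 3 nearest genes by pattern of each of the 10 that passed in both lines. *CCND1*, *DUSP1*, *FOS*, *KLF10* and *MYC* fall outside this rule and were picked with their values known. Not every gene the rule picks is described. Alternatives covered the combination of probe sets, probe sets ending in _x_at, dim genes, other thresholds, other offsets, centering, quantile normalization, a line left out, other priors, no block and the methods' t-test, given there for sorafenib sensitivity. No coordinates are named in the values, and the promoter windows are RefSeq GRCh38.p14. Other assays of the study were not analysed here.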

Additional observations from a re-analysis of the deposited data

Results flagged for a closer look

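In 5 of the 10 genes the single Huh7 ratio was above 1 and the single Hep3B ratio below 1, which is why they are listed. The difference was not tested, because each line has 1 ratio. As Huh7 minus Hep3B on the log2 scale it was 1.43 for *DUSP5*, 1.23 for *PHLDA1*, 1.11 for *SPRY2*, 0.69 for *SPRED2* and 0.43 for *ETV4*. For *ETV4* it depends on the probe set, since the other one was above 1 in both lines. Of all genes, 18.9% had these directions.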

How the results depend on the processing

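The count above 1.5 in both lines, 2 genes, became 1 when all probe sets of a gene were averaged, since *ETV5* was then 1.44 times NC in Hep3B, and 1 at thresholds of 2.0 and 0.5. It was 2 to 4 when a line was left out, 4 being Huh7 alone. The count below 0.67 in both lines, 0 genes, became 1 at a looser pair of thresholds, which *SPRED1* passed, and 0 to 4 when a line was left out, 4 being Hep3B alone. With 16 added to every intensity, *SPRY2* (0.695) and *SPRED1* (0.703) were inside the lower threshold in Hep3B. With the mean of all probe sets *ETV4* in Hep3B was 1.04 times NC and *PHLDA1* 0.797, and *SPRED1* was 0.985 in Huh7 and 0.892 in Hep3B. Of 50 mean log2 ratios of single genes under alternatives, 48 lay within the SD of the lines from the value given, and 2 did not, *SPRED1* at -0.09 and *ETV5* at 0.70 with that mean. Part of this was fixed in advance. No probe set of the 10 genes ends in _x_at, and *SPRY2*, *SPRY4* and *DUSP5* have 1 probe set each. The SD was also wide where the lines disagreed, at 1.54 for *DUSP6* and 1.11 for *DUSP4*. The count of 48 is therefore no measure of stability. The medians of the 10 genes kept their direction in each line under every alternative run for them. Part of that was fixed in advance too. Leaving out dim genes or probe sets ending in _x_at removes none of the 10 genes, and an added offset cannot turn the direction of a ratio.

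limma called none of the 10 genes under any alternative, their lowest adjusted p being 0.116 without an offset and 0.179 with an intensity trend, where 8 and 9 of all genes were called. Without the cell line as a block it was at 1 by limma, and the methods' t-test, which the study names for another comparison (sorafenib sensitivity), called 127 genes at its threshold of 0.01 and none of the 10, with 1 of the 10 under 0.05 before adjustment. No condition was repeated in a line, so culture and array error have no estimate.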

Other observations

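*SPRY4-IT1*, a long noncoding RNA from an intron of *SPRY4*, has probe sets of its own and was chosen after its values were seen. The brighter one had an intensity of 75.4 with ATO and 30.5 in NC of Huh7, and 37.6 with ATO and 26.0 in NC of Hep3B. Its ratios were 2.47 and 1.45, beside 2.59 and 2.0 for *SPRY4*. The other probe set was below the median throughout, at ratios of 1.35 and 1.31. The sources used here do not say whether either probe set also reads unspliced *SPRY4* RNA.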
